A study of Mus musculus with 2 samples.

Results

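Elongating spermatids with an intermediate content of late spermatid transcripts were taken from single-cell RNA profiles of whole mouse testis and described in a control and a Dot1L conditional knockout (cKO) library. A cell was a member when its barcode had 4000 or more UMIs (unique molecular identifiers, which count captured transcript molecules), at most 10% of UMIs from mitochondrial genes, at most 2 UMIs of the spermatocyte gene Piwil1, and a late gene share from 1 to below 4 times the average. The late gene share is the part of a barcode's UMIs that belongs to Smcp, Tppp2, Lelp1 and Spem2. The average, 0.402%, is the part these 4 genes take of the UMIs of all barcodes of both libraries together. In all 4742 of 38009 barcodes (12.5%) met the rule, 2563 of them control and 2179 cKO cells. The members were chosen by measured counts, so the levels of those 4 genes, of Piwil1 and of mitochondrial genes in the members are given as a description only. Transition protein and protamine genes took no part in the choice.

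The control testes had the genotype Dot1L fl/+ without Cre. The cKO testes were Dot1L fl/delta and carried Ddx4-Cre, a recombinase under the promoter of a germ cell gene, so each group had at least 1 floxed allele and only the cKO group had the delta allele. DOT1L places methyl groups on lysine 79 of histone H3, a mark found over transcribed genes. Each group is 1 library made with a 3′ droplet kit from dissociated whole testis, and neither the number nor the age of the animals is given in the labels. Every difference is therefore between 2 libraries and has no replicate check. No test was made, and the 95% intervals cover counting error only.

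Spermatids finish meiosis round and then elongate. During elongation histones are hyperacetylated and removed, transition proteins bind the DNA for a time, and protamines take their place and compact the sperm nucleus. Transcription ceases as the chromatin compacts, so many mRNAs of the tail, the head and the protamines are made early, stored and translated later.

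The members were rich in transition protein and protamine transcripts, which mark elongating spermatids. The 10 markers of that stage that the rule did not use (Tnp1, Tnp2, Prm1, Prm2, Odf1, Oaz3, Akap4, Gapdhs, Spem1 and Cmtm2a) summed to 229997 CPM (UMI counts scaled to a total of 1000000, here over the members of a library) in control and 170378 CPM in cKO members. In barcodes with 10 or more Piwil1 UMIs, mostly of the spermatocyte stage, the same sum was 5294 and 6392 CPM. Tnp1, Tnp2, Prm1 and Prm2 hold most of the members' sum. The other markers were also higher in members than in Piwil1-high barcodes except Cmtm2a, which stood at 567 and 525 CPM in members, 1153 and 1073 CPM in Piwil1-high barcodes and 1453 and 1147 CPM just below the range. Summed markers of round spermatids stood at 3425 and 3642 CPM in members, against 5772 and 5455 CPM in barcodes just below the range (late gene share 0.25 to below 1 times the average). Within that sum Tssk2 went the other way, at 1231 and 1325 CPM in members against 696 and 697 CPM just below the range. The 9 spermatocyte markers other than Piwil1, which chose both kinds of barcode, summed to 558 CPM in control and 553 CPM in cKO members, against 2749 and 2710 CPM in the Piwil1-high barcodes. Of these, Nme8 (278 and 216 CPM against 99.6 and 87.3 CPM) and Spag6 (70.03 and 85.0 CPM against 15.4 and 28.7 CPM) were higher in members. The label holds less well at the lower edge of the range. Transition proteins and protamines were under 5% of UMIs in 228 control (8.90%) and 195 cKO members (8.95%), and Acrv1, an acrosomal gene of round spermatids, had a UMI in 34.7% and 35.9% of members. Most of these cells lay between 1 and 2 times the average, where 22.4% of control and 24.1% of cKO cells were under the 5% limit, against 0.506% and 0.360% between 2 and 4 times.

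The rule's own genes followed the range that chose the cells. Smcp, which encodes a protein of the sperm mitochondrial capsule, stood at 4362 CPM in control and 4315 CPM in cKO cells between 1 and 2 times the average, and at 8063 and 8248 CPM between 2 and 4 times. At the lower threshold, transition proteins and protamines made up a median of 0.876% of UMIs in the 97 control cells from 0.9 to below 1 times the average and 2.11% in the 107 cells from 1 to below 1.1 times. In the cKO library these medians were 0.830% in 88 cells and 1.501% in 76 cells. At the upper threshold, the medians were 31.8% just inside and 29.3% just outside in control cells, and 23.5% and 21.5% in cKO cells. The lower threshold thus sits where these transcripts begin to accumulate, and the upper threshold falls within cells rich in them.

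A smaller part of the cKO library met the rule. Members were 14.7% (14.2 to 15.3) of all control barcodes and 10.6% (10.2 to 11.0) of all cKO barcodes, a log2 ratio of -0.48. Of barcodes past the UMI and mitochondrial limits they were 36.2% (35.1 to 37.3) and 29.9% (28.8 to 30.9). Within the members the distribution was alike: 61.7% (59.8 to 63.6) of control and 63.8% (61.8 to 65.9) of cKO members lay between 2 and 4 times the average, and these intervals overlap. When only barcodes at 0.25 times the average or more are counted, those at 1 to below 2 times were 21.2% and 19.6%, those at 2 to below 4 times 34.1% and 34.7%, and those at 4 times or more 17.1% and 16.4%. The plot of the late gene share shows both libraries peaking inside the member range.

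**Figure D1:**
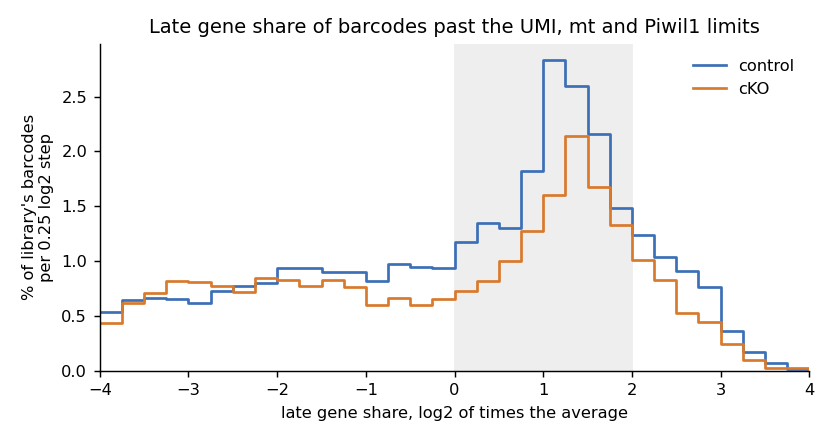
Distribution of the late gene share (x axis, log2 of times the average) among barcodes past the UMI, mitochondrial and Piwil1 limits, as a percentage of all barcodes of the library (y axis) in steps of 0.25 log2; the grey band marks the members. Both libraries peak inside the band, and the control curve lies higher there, 14.7% of control against 10.6% of cKO barcodes being members.

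Control members had more UMIs but cKO members held more kinds of transcript at an equal number of UMIs. The median member had 13102 UMIs in control and 10559 in cKO. It had 2277 and 2367 genes, and after each cell was thinned to 4000 UMIs, with no member left out, 1190 genes (quartiles 1062 and 1542) and 1376 genes (quartiles 1254 and 1633). The gap was wider at the upper part of the range, 1090 against 1287 genes between 2 and 4 times the average, than at the lower part, 1670 against 1742 genes. Tnp1, Tnp2, Prm1 and Prm2 took a median of 28.9% of UMIs in control and 20.6% in cKO members. Fewer of the 4000 UMIs were thus left for other genes in control, and the part of this in the gap was not tested. The median mitochondrial share was 0.223% in control and 0.385% in cKO members. Of all barcodes, 102 occurred in both libraries; 14 control and 11 cKO members carried such a barcode and 0 of these barcodes were members in both. No doublet caller was used. Over 15000 UMIs were found in 1059 control and 682 cKO members, and 3 and 10 members also met the rule for somatic cells (10 or more UMIs of 5 macrophage or of 5 mesenchymal genes).

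Transcripts of the transition proteins and protamines made up less of the RNA of cKO members. Tnp1, Tnp2, Prm1 and Prm2 together made up 22.4% of the UMIs of control members and 16.5% of those of cKO members, a log2 ratio of -0.44 (-0.443 to -0.440). The median member held 28.9% (quartiles 19.7% and 32.9%) in control and 20.6% (quartiles 15.2% and 23.8%) in cKO, so the cells of the libraries overlap but the upper quartile of cKO members lies below the control median. The share was 13.8% against 10.3% between 1 and 2 times the average and 31.1% against 22.6% between 2 and 4 times. In UMIs per cell it was 3576 and 2268. Barcodes of other kinds held fewer. The Piwil1-high barcodes, which should not express these genes, had 177 and 216 UMIs per cell at median depths of 45195 and 38694 UMIs. The somatic barcodes had 224 and 88.0 UMIs per cell at 2998 and 2979 UMIs. Of the 61 control and 277 cKO somatic barcodes, 3 and 10 were also members, and their part in the somatic values was not separated. As a share of UMIs this was 0.386% in control and 0.5004% in cKO Piwil1-high barcodes, and 3.72% and 1.60% in somatic barcodes, so the sign of the difference was not the same in these 2 kinds. With the mean UMIs of a Piwil1-high barcode subtracted from each member, the log2 ratio in members was -0.51.

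The 4 genes did not differ to the same extent. Prm1, the protamine common to mammals, stood at 88203 CPM in control and 53497 CPM in cKO members, a log2 ratio of -0.72 (-0.724 to -0.719). Prm2, made as a precursor and trimmed on the DNA, stood at 65500 and 58132 CPM (log2 -0.17). Tnp1, the smaller and more basic transition protein, stood at 29143 and 19611 CPM (log2 -0.57), and Tnp2 at 41304 and 33778 CPM (log2 -0.29). Prm3, an acidic protein encoded between Prm2 and Tnp2, stood at 3122 and 2202 CPM (log2 -0.50). The linker histones of spermatids were close in both libraries: H1fnt stood at 1740 and 1722 CPM (log2 -0.01), and Hils1 at 2342 and 2478 CPM (log2 0.08, or -0.12 when the median gene is set to 0). Of these 7 genes 1 was over 1.5-fold lower in cKO members and 0 were over 1.5-fold higher, with a median log2 ratio of -0.29; with the median gene set to 0, Tnp1 and Prm3 also passed 1.5-fold lower, 3 of 7, and the median was -0.50. Over all 14782 genes measured in members (50 or more UMIs over both libraries), 5.45% were over 1.5-fold lower and 24.1% over 1.5-fold higher, with a median of 0.21.

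In the Piwil1-high barcodes the log2 ratio of Prm1 was 0.01, of Prm2 0.67, of Tnp1 0.26 and of Tnp2 0.51. In the somatic barcodes the ratios were -1.68, -0.87, -1.23 and -1.09. Prm1 was thus the lowest of the 4 in members and in both other kinds of barcode, and Prm2 the highest. The somatic barcodes include 3 control and 10 cKO members, so their ratios are not separate from those of members.

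Prm1, Prm2, Prm3 and Tnp2 lie side by side on the same strand of mouse chromosome 16 (GENCODE vM21 on GRCm38: Prm1 10796326 to 10805839, Prm2 10791380 to 10796134, Prm3 10790505 to 10790914, Tnp2 10787936 to 10788660, all minus strand), while Tnp1 lies on chromosome 1 (73015074 to 73015909, minus strand). Their promoters are printed so that neighbouring genes with different ratios can be set side by side. Each line gives the 100 bases before the start of the gene, 5′ to 3′ on the gene's strand, from RefSeq (GRCm38.p6), with matches to the motifs searched in capitals. The RefSeq starts of Prm1, Prm2, Tnp1 and Tnp2 lie inside the longer GENCODE gene models given above.
Prm1 promoter, chr16:10796824-10796923, minus strand: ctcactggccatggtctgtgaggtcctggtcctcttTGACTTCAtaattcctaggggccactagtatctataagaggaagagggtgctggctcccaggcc
Prm2 promoter, chr16:10792106-10792205, minus strand: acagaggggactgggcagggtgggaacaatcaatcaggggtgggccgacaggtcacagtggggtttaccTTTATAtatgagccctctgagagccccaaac
Prm3 promoter, chr16:10790915-10791014, minus strand: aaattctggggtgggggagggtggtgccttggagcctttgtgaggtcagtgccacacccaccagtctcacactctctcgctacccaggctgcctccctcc
Tnp2 promoter, chr16:10788656-10788755, minus strand: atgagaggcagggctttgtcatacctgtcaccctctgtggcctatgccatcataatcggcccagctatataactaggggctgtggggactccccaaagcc
Tnp1 promoter, chr1:73015900-73015999, minus strand: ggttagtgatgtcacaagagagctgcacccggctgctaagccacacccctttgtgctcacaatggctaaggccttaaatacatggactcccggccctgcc

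The motifs searched on both strands were TGACGTCA (the full cyclic AMP response element), TGACTTCA (a variant of it) and TATAAA (a core promoter element), none of which overlaps another in these stretches. TGACTTCA was found in the Prm1 stretch, with its first base 64 before the start, and TATAAA in the Prm2 stretch, there on the other strand, with its first base 31 before the start. The other 3 stretches held none of these letters. The stretch of the same length before the start was searched in 32851 mouse promoters. In these stretches TGACTTCA was found in 0.594%, TGACGTCA in 1.15% and TATAAA in 5.56%. A match is a description of the letters and was not linked to any value here.

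The balance of the protamine transcripts differed between the libraries across most of their cells. Prm2 made up 42.6% (42.58 to 42.65) of Prm1 and Prm2 UMIs in control members and 52.1% (52.02 to 52.13) in cKO members. Over the 2490 control and 2104 cKO members with 100 or more protamine UMIs the medians were 41.9% and 51.1%. Of these cKO cells 99.6% lay above the control median, and 6.22% of the control cells above the cKO median. A share over 46% was found in 14.9% of control and 97.9% of cKO cells. The balance was 43.3% against 52.6% between 1 and 2 times the average and 42.3% against 51.9% between 2 and 4 times. The same direction was seen in barcodes just below the range, 46.1% against 54.5%, and at 4 times or more, 66.5% against 75.8%. It was also seen in Piwil1-high barcodes, which should lack these transcripts, 47.6% against 58.99%. In somatic barcodes, of which 3 control and 10 cKO barcodes were also members, the balance was 48.1% against 61.9%. The balance of the transition proteins moved less, Tnp2 being 58.6% of Tnp1 and Tnp2 UMIs in control and 63.3% in cKO members.

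**Figure D2:**
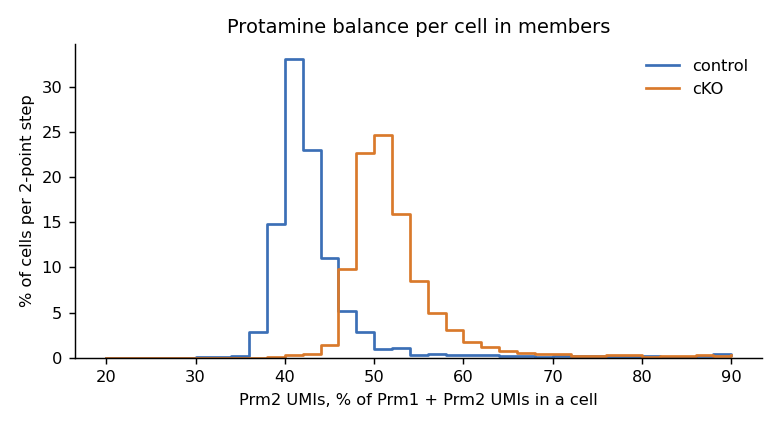
Share of Prm2 among Prm1 and Prm2 UMIs per cell (x axis, %) in members with 100 or more protamine UMIs, as a percentage of those cells (y axis) in steps of 2 points, from 20% to 90%. The control curve centres on a median of 41.9% and the cKO curve on 51.1%, with little overlap.

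Within the member range Prm1 stood highest in the last step along the late gene share in both libraries, and Tnp2 in the step before it. In the lowest of 4 steps of equal log2 width across the member range, from 1 to 1.41 times the average, Prm1 stood at 30254 CPM in control and 16581 CPM in cKO cells. It stood at 74640 and 45854 CPM in the next step, at 116655 and 70429 CPM from 2 to 2.83 times, and at 141389 and 80906 CPM from 2.83 to 4 times. Its log2 ratio in the 4 steps was -0.87, -0.70, -0.73 and -0.81, so the Prm1 difference was present from the first step. Prm2 was at 24103 and 19791 CPM in the first step and at 108422 and 92073 CPM in the last (log2 ratios -0.28, -0.18, -0.20 and -0.24), and was higher still beyond the range, at 137985 and 121975 CPM from 4 to 5.66 times. Tnp2 reached its highest level from 2 to 2.83 times, 60055 and 49724 CPM, and was at 42329 and 34787 CPM in the last step and 11058 and 8543 CPM beyond it. Tnp1 reached 40933 CPM at the same step in control cells, while cKO cells held 26784 and 26915 CPM in the last 2 steps. From 4 to 5.66 times the average Tnp1 was at 6670 CPM in control and 7887 CPM in cKO cells, so there its ratio had the other sign (log2 0.24).

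Hils1 was at its highest from 1.41 to 2 times the average, 3207 CPM in control and 3349 CPM in cKO cells. In the last step of the range it was at 763 and 1028 CPM, a log2 ratio of 0.43. Acrv1 went from 478 and 453 CPM in the first step to 18.1 and 30.5 CPM in the last. Spaca1, another acrosomal gene made in round spermatids, went from 714 and 875 CPM to 29.7 and 62.0 CPM. Both were over 1.5-fold higher in cKO cells in the last step, at low levels. Tail genes were at their highest at the upper end: Odf1, an outer dense fibre protein, went from 322 and 296 CPM to 585 and 558 CPM, and Akap4, the main anchor protein of the fibrous sheath, from 533 and 464 CPM to 1318 and 1163 CPM. Gapdhs, the sperm form of a glycolytic enzyme, went from 1235 and 1108 CPM to 3322 and 2986 CPM. The values at each step share the library and the same total, so a gene's CPM also moves with the protamine share.

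**Figure D3:**
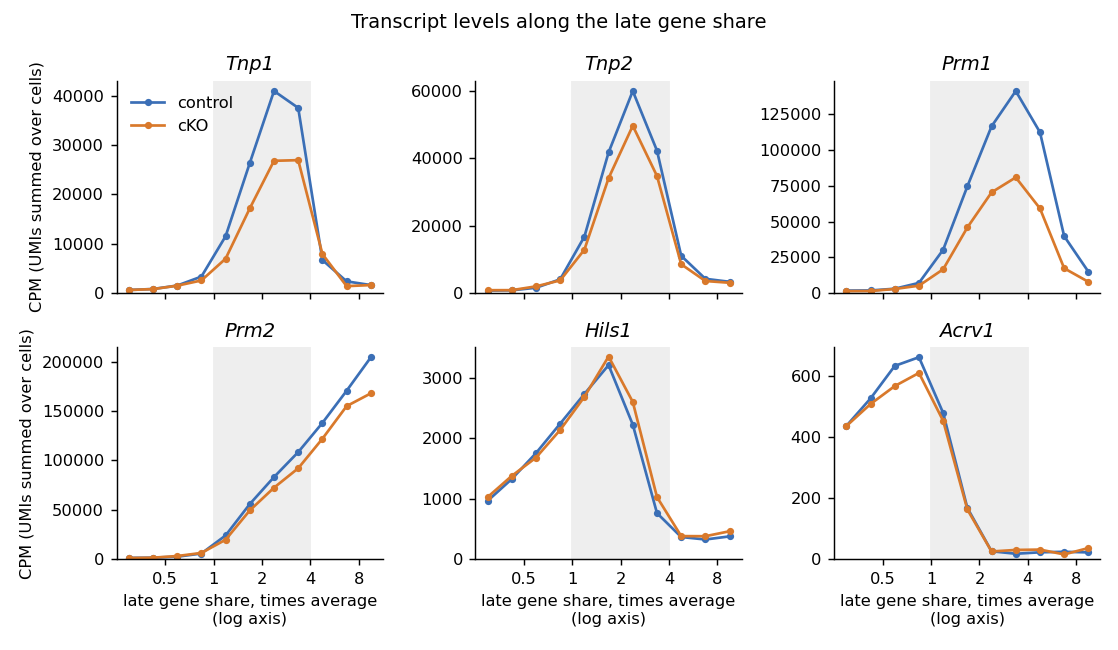
Level of 6 genes (y axis, CPM of UMIs summed over the cells of a step) along the late gene share (x axis, times the average, log axis, steps of 0.5 log2), with the member range in grey. Prm1 and Tnp1 stand lower in the cKO library in all 4 steps of the range, Prm2 and Tnp2 less so, and Hils1 and Acrv1 lie close in the first 2 steps.

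The genes that changed most across the range were ranked by the smaller of the changes in the 2 libraries. A gene had to change in both libraries to be named, so likeness between the libraries is not a result here. Among genes with 50 or more CPM in the higher range, the largest increases from 1 to 2 times to 2 to 4 times were those of Car2 (carbonic anhydrase 2; 367 to 905 CPM in control and 361 to 841 CPM in cKO), Cby3, Cyp2a12, the kallikreins Klk1b8 and Klk1b9, Odf3b, Prm1 and Prm2, with log2 increases of 1.21 to 1.36 in control and 1.20 to 1.29 in cKO cells. Of these, Klk1b9 (179 against 107 CPM, log2 -0.74) and Klk1b8 (633 against 418 CPM, log2 -0.60) were over 1.5-fold lower in cKO members besides Prm1. The largest decreases were those of Fam209, Spata9, Hsfy2, Cd46, Rnf2, Cldn34c4, Ube2dnl1 and Vgll3, with log2 changes from -3.86 to -4.22 in control and from -3.66 to -4.01 in cKO cells. Fam209, a membrane protein needed for acrosome formation, went from 1255 to 78.0 CPM in control and from 1227 to 88.7 CPM in cKO cells. Each of the 8 was at 17.4 CPM or less between 2 and 4 times the average apart from Fam209. Ube2dnl1, of the ubiquitin-conjugating enzyme family, was over 1.5-fold lower in cKO members (46.6 against 26.8 CPM, log2 -0.80).

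Across the measured genes the cKO members were shifted upward, with the larger median at the upper end of the range. The median log2 ratio was 0.12 over 13417 genes between 1 and 2 times the average and 0.38 over 10391 genes between 2 and 4 times, where 34.4% were over 1.5-fold higher and 4.18% lower. In the lower range these were 19.1% and 6.36%. The shift was 0.15 just below the range, 0.31 above it, 0.04 in Piwil1-high and 0.05 in somatic barcodes. CPM divides by a total in which the 4 protamine and transition protein genes hold 22.4% and 16.5%, and scaling the members so that the median gene is at 0 left 2315 genes higher and 1477 lower, against 3569 and 806 as counted. A log2 ratio of 0.21 in members is therefore that of the median gene. Setting it to 0 lowers every ratio by that amount and turns the medians of 10 of the 18 gene lists to the other sign, so each list's count is also given on that scale where it differs.

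Factors that act on histones were mostly close in both libraries. Of 25 measured genes for histone removal and acetylation 5 were over 1.5-fold higher and 0 lower, with a median log2 ratio of 0.02; all genes gave 24.1% and 5.45% and a median of 0.21, shares that hold for every list below. With the median gene at 0, 2 of the 25 (Chd5 and Tssk6) were higher and the list median was -0.19. Chd5, a chromatin remodeller needed for histone removal in spermatids, stood at 47.0 CPM in control and 117 CPM in cKO members (log2 1.32, 1.24 to 1.40). At 4000 UMIs per cell 15.2% of control and 35.8% of cKO members had a Chd5 UMI. Its log2 ratio was 0.35 just below the range, 0.92 between 1 and 2 times, 1.97 between 2 and 4 times and 0.55 in Piwil1-high barcodes. Sirt1, a deacetylase (55 and 64 UMIs, log2 0.67), rests on few UMIs. Crebbp, an acetylase, stood at 7.61 and 11.6 CPM (log2 0.62), and Tssk6 is described with the kinases.

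Of 14 measured testis histones and replacement variants 2 were over 1.5-fold higher and 2 lower, with a median of 0.14, against 24.1% and 5.45% of all genes. With the median gene at 0 these were 1 and 3, with a median of -0.07. H2afv was at 6.95 and 14.4 CPM (log2 1.05, 0.83 to 1.27) and H2afx, the variant marked at DNA breaks, at 3.33 and 5.27 CPM (log2 0.67, 0.33 to 1.01). H2afy2, a macroH2A, was at 1.76 and 0.83 CPM from 72 and 25 UMIs (log2 -1.08, -1.80 to -0.40), and Hist1h1t, the linker histone of spermatocytes, at 2.30 and 1.20 CPM from 94 and 36 UMIs (log2 -0.94, -1.53 to -0.37).

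The multicopy genes of the X and Y chromosomes had a median of -0.26 over 15 measured genes, of which 2 were over 1.5-fold higher and 4 lower, or 0 and 6 with the median gene at 0. The median was -0.05 in cells at 1.5 to below 3 times the average late gene share and -0.35 with the late gene share taken without the 4 protamine and transition protein genes, so its size depended on how cells were chosen. H2al1a, a histone H2A-like variant of late spermatids on the X chromosome, stood at 68.2 CPM in control and 1.84 CPM in cKO members (log2 -5.21, -5.63 to -4.83). H2al1g stood at 74.5 and 3.27 CPM (log2 -4.51), whereas H2al1m stood at 67.4 and 108 CPM (log2 0.68). Of the last 400 nucleotides of these transcripts 99.7%, 99.4% and 88.1% is shared with other genes in words of 40 nucleotides, so their counts may be divided among copies and each value is uncertain. The summed level of these 3 genes cannot be read as that of the family. Sly, a Y-linked regulator of sex chromosome genes in spermatids, stood at 30.1 and 19.8 CPM (log2 -0.60), and Ssty2 at 5.63 and 3.54 CPM (log2 -0.67), the latter with a fully shared 3′ end. Slx, the X-linked counterpart of Sly, had 40 and 45 UMIs (log2 0.62, -0.03 to 1.27, an interval that reaches 0), and the larger Slxl1 4410 and 4003 UMIs (log2 0.31).

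Dot1l itself was scarce at this stage. It had 284 UMIs in control and 78 in cKO members, 6.95 and 2.60 CPM (log2 -1.42, -1.80 to -1.05), and at least 1 UMI in 7.53% and 3.304% of members. The log2 ratio was -1.78 between 1 and 2 times the average and -0.05 between 2 and 4 times. From the lower to the upper range Dot1l changed by log2 -2.77 in control and -1.04 in cKO cells. The ratio in the upper range thus rests on few UMIs. The ratio was -2.69 just below the range, -0.64 in Piwil1-high and -1.64 in somatic barcodes. A 3′ kit reads the end of the transcript and the deleted part is not given in the labels, so these counts are a weak check of the deletion. Ddx4, whose promoter drives the Cre and which encodes an RNA helicase of germ cells, stood at 49.1 and 28.3 CPM (log2 -0.79). Its ratio was -0.92 between 1 and 2 times the average and -0.20 between 2 and 4 times. Ddx4 was within 1.5-fold in cells at 1.5 to below 3 times the average and in members with at most 15000 UMIs. Of 9 measured genes for DOT1L and its partners 1 was over 1.5-fold higher and 1, Dot1l, lower, with a median of 0.15 (-0.06 with the median gene at 0). Mllt1, a partner of DOT1L in transcription elongation complexes, had 116 and 166 UMIs (log2 0.97), while Mllt3, another, stood at 43.9 and 54.8 CPM (log2 0.32).

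Among 15 measured regulators of spermatid transcription 2 were over 1.5-fold higher and 1 lower, with a median of 0.09, against 24.1% and 5.45% of all genes. With the median gene at 0 these were 1 and 2, Taf7l no longer being past 1.5-fold, and the median was -0.11. Gmcl1, a nuclear envelope protein of germ cells, stood at 5.80 and 16.0 CPM (log2 1.46, 1.24 to 1.69), Taf7l, a testis form of a general transcription factor subunit, at 5.77 and 9.31 CPM (log2 0.69), and Bcorl1, a corepressor, at 1.88 and 0.70 CPM from 77 and 21 UMIs (log2 -1.43, -2.20 to -0.71). Of 21 measured genes for RNA storage and delayed translation 2 were over 1.5-fold higher and 1, Ddx4, lower, with a median of 0.14, or 1 and 2 with a median of -0.06 when the median gene is at 0. Papolb, the testis poly(A) polymerase of the cytoplasm that lengthens the tails of stored mRNAs, stood at 77.8 CPM in control and 221 CPM in cKO members (log2 1.51, 1.45 to 1.57), and 25.2% of control and 55.9% of cKO members had a UMI of it at 4000 UMIs per cell. Its ratio was 0.99 just below the range and 0.48 in Piwil1-high barcodes. Dazl, an RNA-binding protein of germ cells, stood at 14.5 and 24.1 CPM (log2 0.73), and Rbm46 at 6.04 and 8.91 CPM (log2 0.56).

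Most genes of the tail were within 1.5-fold between the libraries. Of 20 genes for outer dense fibres and the fibrous sheath 0 were beyond 1.5-fold in either direction, and their median was -0.00016, or -0.21 with the median gene at 0; Tcp11 at 1361 and 1624 CPM (log2 0.26) and Tekt5 at 113 and 95.3 CPM (log2 -0.25) show the spread. Of 25 axoneme genes 0 were beyond 1.5-fold, with a median of -0.15, but 4 were over 1.5-fold lower, with a median of -0.35, when the median gene was at 0. The sign of the median also varied along the range, -0.22 between 1 and 2 times the average and 0.14 between 2 and 4 times. The median of all genes was 0.12 and 0.38 in these ranges, above the axoneme median in both. In members with at most 15000 UMIs the axoneme median was 0.08. Among the lowest were Cfap70 (20.2 and 13.7 CPM, log2 -0.56) and Drc7, part of the dynein regulatory complex (10.8 and 7.71 CPM, log2 -0.49), and the outer arm dynein heavy chain Dnah8 stood at 55.6 and 41.3 CPM (log2 -0.43). Of 11 subunits of CatSper, the calcium channel of the sperm tail, 0 were beyond 1.5-fold, with a range from -0.30 (Catsper1, 21.7 and 17.6 CPM) to 0.38 (Catsperg2, 122 and 116 UMIs). The CatSper median was -0.11, and -0.32 with the median gene at 0. It was 0.24 between 2 and 4 times the average, below the 0.38 of all genes there, and also 0.24 in members with at most 15000 UMIs. Of 16 genes of the mitochondrial sheath and midpiece 1 was higher, Slc25a31, the ATP carrier of sperm mitochondria (6.19 and 10.3 CPM, log2 0.73), and 1 lower, Phb, with a median of 0.08; with the median gene at 0, Slc25a31 was within 1.5-fold, 3 genes were lower and the median was -0.12. Phb, a scaffold protein of the inner mitochondrial membrane, stood at 67.6 and 7.28 CPM (log2 -3.21, -3.42 to -3.02). Its ratio was -3.96 just below the range, -1.47 in Piwil1-high and -1.15 in somatic barcodes.

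In the head, Hook1 stood out among 25 genes of the manchette (the microtubule sleeve that shapes the nucleus) and head shaping, of which 1 was over 1.5-fold higher and 0 lower, with a median of 0.06, or 1 and 2 with a median of -0.14 when the median gene is at 0. Hook1, a linker to microtubules whose loss gives abnormal sperm heads in mice, stood at 305 CPM in control and 583 CPM in cKO members (log2 0.94, 0.90 to 0.97). The median cell held 293 CPM in control and 575 CPM in cKO, and the ratio was 0.58 just below the range and 0.19 in Piwil1-high barcodes. Of 26 acrosome genes 2 were higher and 0 lower, with a median of -0.02. With the median gene at 0 Spam1 was also over 1.5-fold lower and the median was -0.23, while in members with at most 15000 UMIs the median was 0.23. The higher genes were Zpbp, a protein that binds the egg coat (32.2 and 78.7 CPM, log2 1.29, 1.19 to 1.39), and Smap2, which acts in vesicle traffic from the Golgi (2.37 and 25.6 CPM, log2 3.43, 3.13 to 3.75). Spam1, the sperm hyaluronidase, stood at 30.5 and 22.8 CPM (log2 -0.42).

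Of 17 genes for removal of cytoplasm and ubiquitin 0 were beyond 1.5-fold, with a median of 0.12 (-0.08 with the median gene at 0). Ubb, which encodes polyubiquitin, was the lowest at 3176 and 2473 CPM (log2 -0.36; 70.9% of its 3′ end is shared with other genes). Of 31 proteasome subunits 3 were higher and 0 lower, with a median of 0.19, against 24.1% and 5.45% of all genes and a median of 0.21, and only Psmb1 of the 3 remained past 1.5-fold with the median gene at 0. The 3 were Psmb1 (11.0 and 21.8 CPM, log2 0.99), Psmd14 (4.11 and 6.81 CPM, log2 0.73) and Psmb2 (15.7 and 25.2 CPM, log2 0.68). Of 16 genes of glycolysis and sugar transport 0 were higher and 2 lower, with a median of -0.07 (-0.27 with the median gene at 0). Slc2a3, a glucose transporter of germ cells, stood at 42.6 and 18.6 CPM (log2 -1.19, -1.33 to -1.05). Its ratio was -0.27 just below the range, -1.15 and -1.24 within it, -1.55 above it and -0.11 in Piwil1-high barcodes, where it stood at 1113 and 1035 CPM. Eno1, with 87.0% of its 3′ end shared, stood at 132 and 59.1 CPM (log2 -1.16).

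Of 7 genes of the Tssk kinases and their substrate, which act after meiosis, 1 was over 1.5-fold higher and 0 lower, with a median of 0.10, or 1 and 1 with a median of -0.10 when the median gene is at 0. Tssk6, needed for the histone-to-protamine exchange, stood at 79.2 CPM in control and 1538 CPM in cKO members (log2 4.28, 4.23 to 4.33). With the lowest and highest 5% of cells left out, control members ran from 0 to 265 CPM and cKO members from 457 to 2940 CPM, so these ranges do not overlap. Thinned to 4000 UMIs, 30.0% of control and 98.2% of cKO members had a UMI. The log2 ratio was 4.36 just below the range, 4.92 in Piwil1-high and 4.00 in somatic barcodes, so it was of like size in every kind of barcode examined. Tssk3 stood at 522 and 573 CPM (log2 0.13) and Tssk4 at 74.1 and 63.0 CPM (log2 -0.23).

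**Figure D4:**
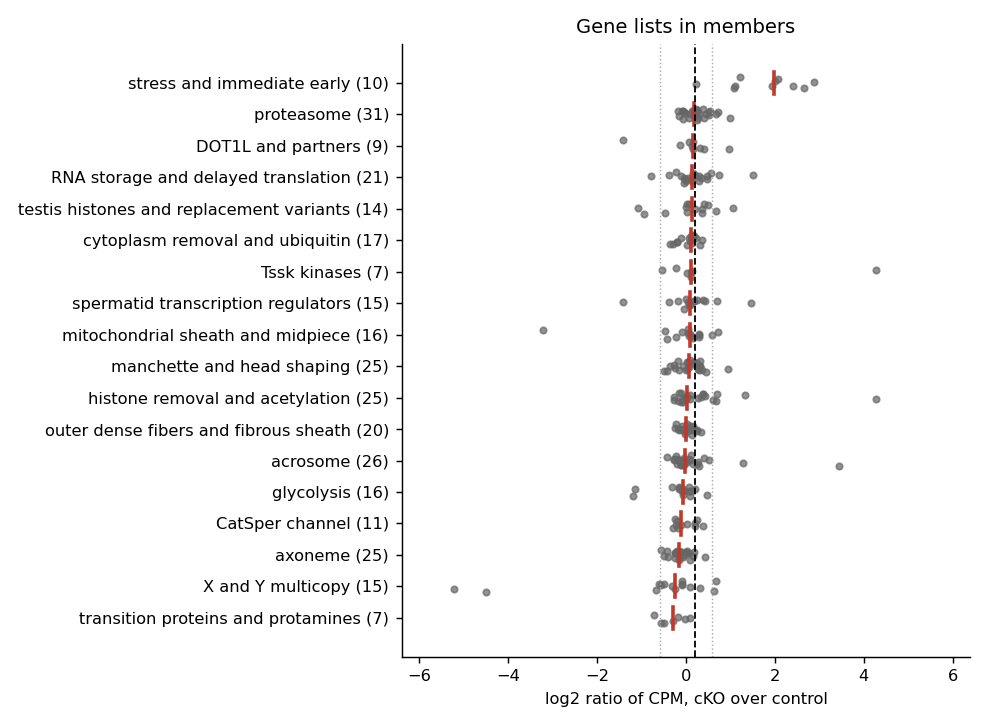
Log2 ratio of CPM, cKO over control, of each measured gene (grey points) in 18 gene lists, with the list median (red bar), the median of all genes at 0.21 (dashed) and the 1.5-fold limits (dotted); the number of measured genes is in brackets. The medians of the transition proteins and protamines, -0.29, and of the X and Y multicopy genes, -0.26, are the lowest and change places under some alternatives, and the stress genes have the highest, 1.98.

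Some of the largest ratios in members were as large in Piwil1-high barcodes, and others were not. Besides Tssk6, the highest included Scand1, which encodes a small SCAN domain protein, on chromosome 2 (156311847 to 156312704, minus strand; 18.4 and 601 CPM, log2 5.03, 4.92 to 5.14), Rabgef1, an activator of RAB5 (2.94 and 75.4 CPM, log2 4.68), and Pgp, phosphoglycolate phosphatase, on chromosome 17 (24470392 to 24473110, plus strand; 213 and 2116 CPM, log2 3.31). In Piwil1-high barcodes these 3 had log2 ratios of 5.68, 4.32 and 3.47, against 5.03, 4.68 and 3.31 in members. Pgp had 3.395 UMIs per control and 29.1 per cKO member.

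Apopt1 and Impad1 were far higher in cKO members but close between the libraries in Piwil1-high barcodes. Apopt1, which encodes a mitochondrial protein of respiratory chain assembly and shares 46.3% of its 3′ end with other genes, stood at 28.6 and 319 CPM in members (log2 3.48, 3.39 to 3.56) but at 66.1 and 79.2 CPM in Piwil1-high barcodes (log2 0.26). Its ratio was 1.81 just below the range, 3.21 between 1 and 2 times and 3.85 between 2 and 4 times. Impad1, a phosphatase of the Golgi, on chromosome 4 (4762484 to 4793355, minus strand), stood at 12.7 and 139 CPM (log2 3.45, 3.32 to 3.58), against 27.3 and 30.7 CPM in Piwil1-high barcodes (log2 0.17), and its ratio was 1.62 just below the range, 3.11 and 3.78 within it. At 4000 UMIs, 4.92% of control and 40.9% of cKO members had an Impad1 UMI. Tusc2 (4.62 and 58.9 CPM, log2 3.67), Akirin1 (21.8 and 227 CPM, log2 3.38) and Dusp15 (8.41 and 86.4 CPM, log2 3.36) were between, with log2 ratios of 2.25, 1.88 and 1.65 in Piwil1-high barcodes. No test of these differences between kinds of barcode could be made with 1 library a group.

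Among the lowest, Hist2h2aa1 stood at 124 and 1.64 CPM (log2 -6.25) and Rpl35, a ribosomal protein, at 558 and 225 CPM (log2 -1.31). The 3′ ends of these 2 genes are 100% and 95.01% shared with other genes, as is all of that of Tmem269 (165 and 78.0 CPM, log2 -1.08), so their counts are uncertain. Wdfy1, an endosomal adaptor, stood at 226 and 110 CPM (log2 -1.04), and was lower still in Piwil1-high barcodes (log2 -2.02). Map3k7, a kinase of the TGF-beta and stress pathways, on chromosome 4 (31964097 to 32023467, plus strand), stood at 90.0 and 39.3 CPM in members (log2 -1.20, -1.29 to -1.10), with ratios of -0.99 just below the range, -1.13 above it and -0.12 in Piwil1-high barcodes.

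**Figure D5:**
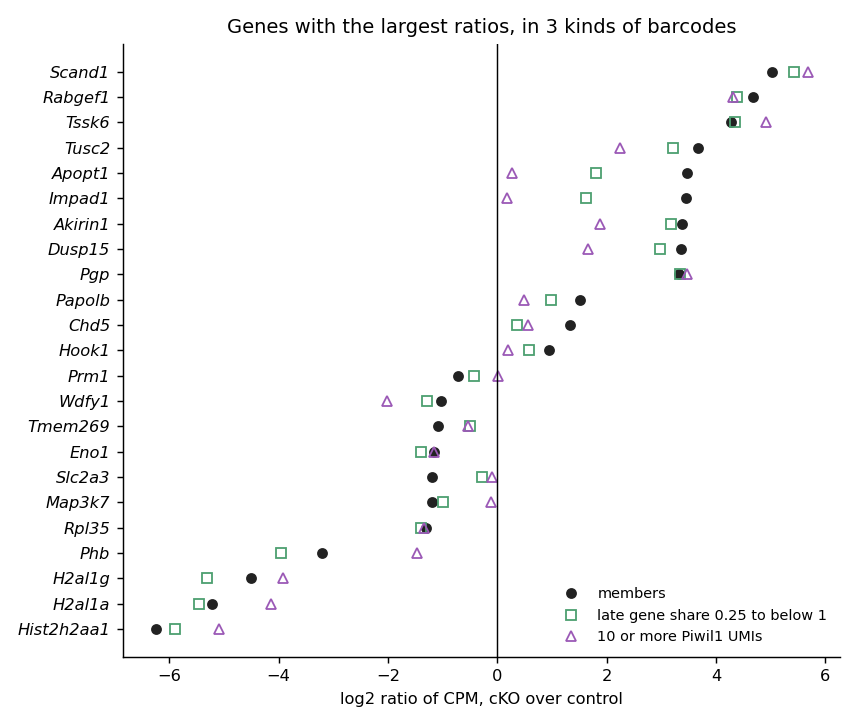
Log2 ratio of CPM, cKO over control (x axis), of reported genes among the 10 highest and 10 lowest and of Papolb, Chd5, Hook1, Prm1 and Slc2a3, in members (black), in barcodes just below the range (green) and in barcodes with 10 or more Piwil1 UMIs (purple). Tssk6 and Pgp lie at like ratios in all 3 kinds, whereas Apopt1, Impad1, Slc2a3 and Map3k7 lie near 0 in the Piwil1-high barcodes.

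The genes with the most UMIs in members, apart from the protamines and transition proteins, were close in CPM, with Gstm5 the furthest apart. Meig1, which acts in the manchette, stood at 7636 and 7599 CPM (log2 -0.01), Dbil5, an acyl-CoA binding protein of spermatids, at 7353 and 7355 CPM (log2 0.00053), Fabp9, a fatty acid binding protein of the testis, at 6370 and 6210 CPM (log2 -0.04), the initiation factor Eif1 at 6050 and 5783 CPM (log2 -0.07) and Gstm5, a glutathione transferase, at 5157 and 4534 CPM (log2 -0.19). With the median gene at 0 these log2 ratios ran from -0.39 for Gstm5 to -0.205 for Dbil5, and Prm2 stood at -0.38. Smcp, a rule gene, was also among the 10 highest.

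Stress and immediate early genes were higher in cKO members at very low levels. Of 10 measured, 9 were over 1.5-fold higher and 0 lower, with a median log2 ratio of 1.98. An alternative chosen after seeing the data left out members that met the rule for somatic cells or had a UMI of hemoglobin, Insl3, Cyp17a1 or Dcn. Only 6 of the genes stayed measured there, 5 of them higher, with a median of 1.14. The medians 1.98 and 1.14 are thus of different gene sets. Fos had 17 UMIs in control and 92 in cKO members (log2 2.89, 2.13 to 3.73), Jun 15 and 58 (log2 2.40), Ier2 13 and 40 (log2 2.07) and Hspb1, a small heat shock protein, 87 and 400 (log2 2.65, 2.312 to 3.001). They came from a small part of the cells: 0.273% of control and 1.01% of cKO members had a Fos UMI, 0.273% and 1.29% a Jun UMI, 0.507% and 1.19% an Ier2 UMI and 3.20% and 13.0% an Hspb1 UMI. Under that alternative the log2 ratios of Fos and Hspb1 were 2.08 (0.36 to 4.17) and 2.68 (2.34 to 3.03), and that of Ier2 was 1.03 (-0.16 to 2.29). The tenth gene, Dnajb1, a heat shock protein also made in spermatids, stood at 242 and 281 CPM (log2 0.21) and holds most of the list's sum of 266 and 347 CPM.

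Leydig cell and mesenchymal transcripts were higher in cKO members, at low levels, and their part in single ratios was not tested beyond leaving cells out. All 7 Leydig cell markers were detected and summed to 20.1 CPM in control and 68.0 CPM in cKO members, with at least 1 UMI in 3.36% and 10.3% of members. Of the 824 and 2036 Leydig UMIs, 529 and 480 lay in 1 member of each library. Without these the sums were 7.22 and 52.0 CPM, and the log2 ratio was 2.85 (2.67 to 3.03) in place of 1.75 (1.64 to 1.87). The 7 mesenchymal markers summed to 1.30 and 9.58 CPM, with 1 at 0 in control and 0 at 0 in cKO members. The 7 macrophage markers summed to 36.5 and 35.7 CPM, of which C1qb alone held 30.6 and 25.6 CPM. The 10 Sertoli markers summed to 232 and 272 CPM, with Amh at 0 in both and most of the sum in Defb19, Cst9 and Cst12. The 10 spermatogonium markers summed to 202 and 218 CPM, of which Dmrtb1 alone held 172.4 and 186.5 CPM. Dmrtb1 was higher in Piwil1-high barcodes, at 512 and 550 CPM. Hemoglobin genes had 168 and 708 UMIs, of which 146 and 706 lay in 1 member of each library. Members that met the rule for somatic cells or had a UMI of hemoglobin, Insl3, Cyp17a1 or Dcn were then left out. The log2 ratio of the 4 protamine and transition protein genes was -0.44 and that of Chd5 1.34, as in all members. Members with other somatic transcripts were kept, and a Sertoli marker UMI was found in 62.2% of all control and 62.3% of all cKO members.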

How the data were processed

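The authors deposited 1 matrix of UMI counts per gene and barcode for each library; per the file headers, Cell Ranger 7.0.0 wrote them. The submitters' processing notes name mm10 as the build and Seurat 4.1.0. No cell annotation was used, and rebuilt classes may differ from those of the study. Libraries held 17408 and 20601 barcodes with 155487418 and 156518838 UMIs, and every barcode had 500 or more.

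Counts were read with Python 3.11.15, numpy 2.4.6, scipy 1.17.1 and pandas 2.3.3. Rule, list and marker genes were found by symbols that occur once, and GENCODE genes were matched by gene identifier. UMIs were summed over members per library and scaled to CPM. Genes with at least 50 UMIs in the 2 libraries together were called measured, and 1.5-fold is a rule of size. Ratios carry conditional binomial intervals and shares Clopper-Pearson intervals, both exact at 95%. The ratio step was tested on simulated data. Of 32285 genes 32235 were found in GENCODE vM21, from which the shared part of each 3′ end was computed.

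The members, the 18 gene lists, the markers and the naming rule were chosen with earlier results of these data known. The rule named 108 genes: the 10 highest and 10 lowest ratios among genes with at least 100 UMIs that reached 50 CPM in either library; the 10 most abundant; every transition protein and protamine; up to 4 of each other list by size of ratio; Dot1l and Ddx4; and the 8 that rise and 8 that fall most between the ranges. Predicted, clone, mitochondrial, hemoglobin and rule genes were passed over in the ranked parts, apart from the most abundant. The rising and falling genes were ranked by the smaller of the changes in the 2 libraries. Some of the named genes are not reported here. Crebbp, Sly, Slx, Slxl1, Dnajb1 and the markers lie outside this rule and were chosen after their values were seen. Alternatives changed the UMI, mitochondrial, Piwil1 and late gene share limits, the upper UMI limit, shared barcodes, thinning, weighting, scaling and the gene minimum, and 3 were added after seeing the data.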

Additional observations from a re-analysis of the deposited data

Results flagged for a closer look

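For 3 of the genes the naming rule chose, the ratio of cKO to control had opposite signs in the lower and upper range of the members, with neither counting interval reaching 0. Meig1 had a log2 ratio of -0.099 (-0.110 to -0.088) between 1 and 2 times the average late gene share and 0.10 (0.092 to 0.115) between 2 and 4 times. Fam209 had -0.032 (-0.060 to -0.005) and 0.19 (0.081 to 0.292), the latter from 1588 control and 1347 cKO UMIs. Smcp, also among the most abundant genes but 1 of those that chose the cells, had -0.015 (-0.030 to -0.00077) and 0.033 (0.022 to 0.043), given as a description. With 1 library a group the difference between the ranges was not tested, and the median gene stood at 0.12 in the lower and 0.38 in the upper range.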

How the results depend on the processing

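None of the 53 named genes past 1.5-fold changed sign under the 13 alternatives that gave all of them a value, and 44 to 53 stayed past 1.5-fold. The subtraction of Piwil1-high means gave a value for Prm1 alone of these, and the gene minimum gave only counts. The fewest, 44, stayed under scaling to the median gene, which took Psmd14, Slc25a31, Psmb2, H2afx, Sirt1, Dazl, H2al1m and Taf7l, among others, below it. The log2 ratio of the members' share of barcodes, -0.48, was -0.65 with a minimum of 6000 UMIs, -0.25 with at most 15000 UMIs, and -0.32 with the late gene share taken over UMIs without Tnp1, Tnp2, Prm1 and Prm2, the last chosen after seeing the data. The difference in genes per member at 4000 UMIs was 186, and 209 and 137 under the latter 2. Genes higher and lower in cKO, 3569 and 806, numbered 2315 and 1477 with scaling to the median gene, 1786 and 455 with a minimum of 200 UMIs per gene, and 5808 and 1475 with a minimum of 10; the lower genes were 524 with a late gene share of 1.5 to below 3 times and 384 with at most 15000 UMIs. The gene minimum changes how many genes are counted; for the other settings the cause was not tested.

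The log2 ratio of the Tnp1, Tnp2, Prm1 and Prm2 share, -0.44, kept its sign throughout. It was -0.454 with 6000 UMIs, -0.440 with a mitochondrial limit of 5%, -0.454 without any Piwil1 UMI, -0.484 for 1.5 to below 3 times, -0.496 with at most 15000 UMIs, -0.444 when thinned and also with cells weighted equally, -0.473 with 4 ranges weighted equally, -0.647 with scaling to the median gene and -0.567 with totals that leave out the 50 most abundant genes. Under the 3 alternatives chosen after seeing the data it was -0.370 (late gene share without the 4 genes), -0.436 and -0.506 (Piwil1-high mean subtracted). The -0.436 is without members that met the rule for somatic cells or had a UMI of hemoglobin, Insl3, Cyp17a1 or Dcn. The median of the transition protein and protamine list, -0.290, was -0.300, -0.286, -0.297, -0.308, -0.318, -0.282 (thinned), -0.282 (equal cells), -0.291 (4 ranges), -0.496 (median gene), -0.415 (totals without 50 genes), -0.258, -0.279 and -0.343 in the same order. The lowest list median was that of the X and Y multicopy genes, not of the transition proteins and protamines, with at most 15000 UMIs (-0.333 against -0.318), when thinned (-0.335 against -0.282) and with the late gene share without the 4 genes (-0.347 against -0.258). Of the 18 list medians 10 took the other sign with scaling to the median gene, 6 with totals that leave out the 50 most abundant genes, 4 for 1.5 to below 3 times, 4 with at most 15000 UMIs and 0 to 3 under the other 9 alternatives. With 1 library a group no library could be left out. No paired analysis was possible, since no label pairs the control with the cKO library.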
